A study of Mus musculus with 6 samples.

Results

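The 8 genes described here, Ttr, Kl, Folr1, Clic6, Aqp1, Otx2, Slc4a5 and Kcnj13, are known for their expression in the choroid plexus, and their RNA was followed mouse by mouse as a check on how much ventricular tissue each brain sample held. They are the rows of the deposited table whose gene symbol equals one of these names, 8 of 43346 rows. The comparison was between the brains of 3 adult male Kdm5c deficient mice and 3 adult male wild-type littermates. All 6 mice came from mating a heterozygous Kdm5c deficient C57BL/6 mother with a wild-type 129 father, so both genotypes carry a mix of these strains, and the deficient mice carry no other named allele or treatment. Kdm5c is an X-linked gene for a demethylase of histone H3 lysine 4. The labels describe neither the allele nor the part of the brain that was dissected, and do not say whether a sample held the whole organ or a piece of it.

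The choroid plexus is a sheet of epithelium around fenestrated capillaries that hangs into each brain ventricle and secretes cerebrospinal fluid. Its epithelial cells move sodium, chloride, bicarbonate and water from blood to ventricle, carry vitamins across, and secrete carrier proteins into the fluid. It is a small, loosely attached tissue, and RNA of genes that few other brain cells use is commonly read as a sign of how much of it a brain sample holds.

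The libraries were similar in depth, with 21090278, 24178704 and 21945675 counts in deficient mice, against 24555412, 20221675 and 22956590 in wild-type mice. Levels are given as CPM, each gene's counts relative to a library total scaled by trimmed mean of M-values. Marker genes of the main brain cell types were abundant in every mouse. Snap25 of neurons stood at 3059 to 3337 CPM, Mbp of oligodendrocytes at 1950 to 3012 CPM and Aldh1l1 of astrocytes at 54.9 to 66.0 CPM. Kdm5c itself averaged 72.8 ± 6.75 CPM in deficient mice and 81.5 ± 3.43 CPM in wild-type mice (SD, n = 3 each), a log2 fold change of -0.16 ± 0.07 (SE, edgeR quasi-likelihood test, Benjamini-Hochberg adjusted p = 0.196). The count covers the whole gene and the allele is not described, so this level does not check the labels. Deficient mouse 2 stood apart from the other 5 mice in 14 cerebellar marker genes, whose summed level was 2814, 980 and 2302 CPM in deficient mice and 3096, 3248 and 3563 CPM in wild-type mice. Deficient mice 1 and 3 were also below every wild-type mouse in this sum. A large part of the sum was the single gene Itpr1. It gave 1305, 737 and 1164 CPM in deficient mice, against 1462, 1526 and 1710 CPM in wild-type mice.

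None of the 8 genes passed the test between genotypes. Their mean levels were lower in deficient than in wild-type brains for 6 genes and higher for Kl and Kcnj13, by log2 fold changes from -0.40 to 0.08. Differences between mice of the same genotype were as large: the deficient mice held both the highest and the lowest values of 3 genes. In bulk tissue, fewer choroid plexus cells and less RNA per cell cannot be told apart, and this holds for all levels given here. By the same test with its adjustment over 15127 genes, 746 genes (4.93% of those tested) had an adjusted p under 0.05, 371 higher (2.45%) and 375 lower (2.48%) in deficient mice. Of the 8 members, all of which were tested, 0 did, and 0 had an unadjusted p under 0.05, against 3760 of all tested genes. The genotypes overlapped for all 8 members, whereas they did not overlap in 30.8% of tested genes.

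**Figure D1:**
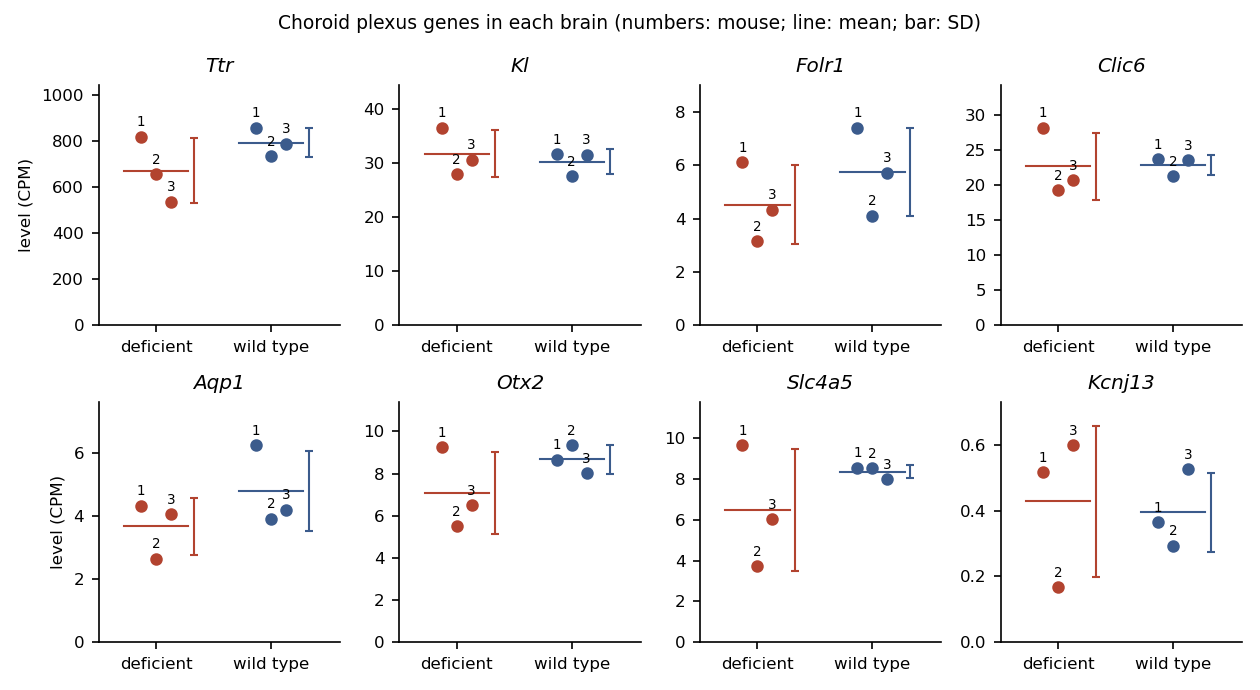
Level of each choroid plexus gene in CPM (vertical axis, from 0, a separate scale per gene) in the 3 deficient and 3 wild-type mice. Points are mice numbered as in the labels, horizontal lines are means and bars are 1 SD; the points of the genotypes overlap in every panel, and deficient mouse 2 has the lowest value for 6 of the genes.

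Ttr encodes transthyretin, the carrier of thyroid hormone and retinol-binding protein that the choroid plexus secretes into cerebrospinal fluid (chromosome 18, 20665280 to 20674321, plus strand, GRCm38). It gave 819, 657 and 536 CPM in deficient mice 1, 2 and 3, from 17424, 15645 and 11650 counts, and 857, 734 and 788 CPM in wild-type mice 1, 2 and 3. Deficient mice 2 and 3 lay below every wild-type mouse and deficient mouse 1 within their range. The means were 671 ± 142 CPM in deficient and 793 ± 61.9 CPM in wild-type mice (SD, n = 3 each). On the log2 scale the difference was -0.24 ± 0.13 (SE; edgeR quasi-likelihood test, adjusted p = 0.293), and its 95% interval ran from -0.54 to 0.06, or 0.686-fold to 1.04-fold.

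Kl encodes klotho, a membrane protein and shed factor that acts as a co-receptor for FGF23 and is made in the choroid plexus and kidney (chromosome 5, 150952607 to 150993817, plus strand). Its level was 36.5, 27.99 and 30.6 CPM in deficient mice and 31.6, 27.6 and 31.6 CPM in wild-type mice. Deficient mouse 1 was the highest and wild-type mouse 2 the lowest, with deficient mouse 2 close to it and the remaining 3 mice between 30.6 and 31.6 CPM. Its log2 fold change was 0.06 ± 0.10 (SE), with a 95% interval from -0.17 to 0.30, and it turned to -0.05 without deficient mouse 1. Kl was the most even of the members, with the highest mouse 1.33-fold above the lowest, near the median of 1.27-fold over all tested genes.

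Folr1 encodes folate receptor alpha, which carries folate across the choroid plexus epithelium (chromosome 7, 101858331 to 101870788, minus strand). It gave 6.11, 3.15 and 4.33 CPM in deficient mice and 7.41, 4.11 and 5.73 CPM in wild-type mice. The highest and lowest values in each genotype were in mice 1 and 2, and the spread within each genotype exceeded the difference between the means of 4.53 ± 1.49 CPM in deficient and 5.75 ± 1.65 CPM in wild-type mice (SD, n = 3 each). Its log2 fold change was -0.36 ± 0.27 (SE), with a 95% interval from -0.97 to 0.24.

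Aqp1 encodes the water channel aquaporin 1 of the epithelium's ventricular face (chromosome 6, 55336432 to 55348555, plus strand). It gave 4.32, 2.64 and 4.05 CPM in deficient mice and 6.23, 3.92 and 4.198 CPM in wild-type mice. Wild-type mouse 1 stood above the other 5 mice and deficient mouse 2 below them. Its log2 fold change of -0.40 ± 0.23 (SE) was the most negative of the members, with an adjusted p of 0.326 in the edgeR test and a 95% interval from -0.92 to 0.13.

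Slc4a5 encodes a sodium bicarbonate cotransporter that sits at the same face of the epithelium (chromosome 6, 83219828 to 83304945, plus strand). It gave 9.63, 3.74 and 6.03 CPM in deficient mice and 8.54, 8.51 and 7.96 CPM in wild-type mice. The wild-type mice lay within a narrow band, deficient mouse 1 above it and deficient mice 2 and 3 below it, so that the SD was 2.97 CPM among deficient and 0.328 CPM among wild-type mice. Its log2 fold change of -0.38 ± 0.27 (SE) had an adjusted p of 0.424 in the edgeR test and a 95% interval from -0.99 to 0.24.

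Clic6 encodes a chloride intracellular channel protein that is abundant in secretory epithelia (chromosome 16, 92485736 to 92541243, plus strand). It gave 28.1, 19.3 and 20.7 CPM in deficient mice and 23.7, 21.2 and 23.6 CPM in wild-type mice. Deficient mouse 1 was again the highest and deficient mouse 2 the lowest, and the means of 22.7 ± 4.78 CPM in deficient and 22.8 ± 1.39 CPM in wild-type mice (SD, n = 3 each) were close, at a log2 fold change of -0.01 ± 0.13 (SE) with a 95% interval from -0.31 to 0.29. Its sign changed in 4 of the 6 fits that left a mouse out.

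Kcnj13 encodes the inward rectifier potassium channel Kir7.1 of the choroid plexus and retinal pigment epithelium (chromosome 1, 87386363 to 87394729, minus strand). With 11, 4 and 13 counts in deficient mice, against 9, 6 and 12 in wild-type mice it was near the limit of this depth, at 0.168 to 0.599 CPM in deficient mice and 0.294 to 0.525 CPM in wild-type mice. Its 95% interval from -0.98 to 1.15 on the log2 scale leaves room for a difference in either direction, so no genotype difference could be detected at this depth. In the annotation 623 of its 1270 exonic bases overlap exons of Gigyf2 on the opposite strand, and the use of strand in counting is not stated, so its counts may include reads of that gene.

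Otx2 encodes the homeodomain transcription factor that choroid plexus cells need to form and to keep their identity, and that the adult tissue also secretes (chromosome 14, 48657677 to 48673819, minus strand). It gave 9.26, 5.498 and 6.49 CPM in deficient mice and 8.66, 9.35 and 8.003 CPM in wild-type mice. Deficient mice 2 and 3 lay below every wild-type mouse and deficient mouse 1 within their range, the same placing as for Ttr. The means were 7.08 ± 1.95 CPM in deficient and 8.67 ± 0.671 CPM in wild-type mice (SD, n = 3 each), a log2 difference of -0.29 ± 0.18 (SE, adjusted p = 0.338 in the edgeR test). Exons of Otx2os1 on the opposite strand and of Gm49154 on the same strand cover 322 of its exonic bases.

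Promoter sequence is shown for Kl, the most even member, and for Slc4a5 and Kcnj13, the members with the widest ratio of highest to lowest mouse (2.58 and 3.57). Each line gives the 250 bases before a RefSeq transcription start in GRCm38.p6, 5′ to 3′ on the gene's strand, with matches on either strand to TATAAA, the letters of a TATA box, and to GGGCGG, those of a GC box, in capitals.
Kl, chr5:150952357-150952606, plus strand: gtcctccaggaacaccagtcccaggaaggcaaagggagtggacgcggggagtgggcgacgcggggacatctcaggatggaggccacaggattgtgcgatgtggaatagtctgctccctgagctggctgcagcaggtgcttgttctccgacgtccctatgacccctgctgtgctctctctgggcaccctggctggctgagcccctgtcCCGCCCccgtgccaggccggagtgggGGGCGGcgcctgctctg
Slc4a5, chr6:83237125-83237374, plus strand: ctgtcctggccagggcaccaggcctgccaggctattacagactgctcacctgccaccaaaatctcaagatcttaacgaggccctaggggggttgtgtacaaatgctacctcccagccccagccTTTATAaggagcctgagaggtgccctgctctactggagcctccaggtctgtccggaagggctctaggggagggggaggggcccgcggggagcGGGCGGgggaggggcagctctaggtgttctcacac
Kcnj13, chr1:87394730-87394979, minus strand: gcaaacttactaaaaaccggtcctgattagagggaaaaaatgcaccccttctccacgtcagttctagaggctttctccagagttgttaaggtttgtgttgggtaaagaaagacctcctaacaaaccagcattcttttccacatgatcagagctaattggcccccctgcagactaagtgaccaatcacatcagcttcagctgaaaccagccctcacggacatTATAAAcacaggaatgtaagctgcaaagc
Kl has the GC box letters at 17 and 43 bases before the start, Slc4a5 has them at 35 and the TATA box letters at 127, and Kcnj13 has the TATA box letters at 29. The motifs do not overlap each other in these windows. The Slc4a5 window lies inside the annotated gene, which starts at 83219828. Among 32851 RefSeq promoters of the same length, 12.4% held the TATA box letters and 32.7% the GC box letters. TAATCC, the letters of a bicoid-class homeodomain motif that Otx2 can bind, was in 6.25% of these promoters, in none of the 3 shown and in 1 of the 8 promoters (5 matched members) that were searched. That promoter belongs to Otx2, and no promoter of Ttr, Folr1 or Clic6 was searched. A match is only a run of letters, and a window without a match says nothing about the factor.

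Levels were also set against each other per kilobase of annotated exon. Ttr was far above the rest, at 617 ± 100 CPM per kb over the 6 mice (SD), and made up 88.1 to 91.3% of the summed CPM of the 8 genes in each mouse. Clic6 followed with 5.82 ± 0.805 CPM per kb and Kl with 3.32 ± 0.347 CPM per kb, and the ranges of these 3 genes over mice did not overlap. Folr1 (2.24 ± 0.678 CPM per kb), Otx2 (1.87 ± 0.371), Aqp1 (1.61 ± 0.440) and Slc4a5 (1.28 ± 0.371) came next, and neighbours in this order, starting with Kl and Folr1, overlapped in their ranges over mice. Kcnj13 was the lowest, at 0.324 ± 0.129 CPM per kb, with a range below that of Slc4a5. The order comes from merged exons of the annotation and depends on which transcripts the cells use.

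The members varied together from mouse to mouse. Each gene's log2(CPM + 0.5) was centred on its mean over the 6 mice, and the average of the 8 centred values was 0.24, -0.42 and -0.12 in deficient mice 1, 2 and 3, against 0.22, -0.03 and 0.10 in wild-type mice 1, 2 and 3. Deficient mouse 1 was thus about as high as wild-type mouse 1, and deficient mouse 2 was the lowest of all. Without Ttr these averages were 0.25, -0.46 and -0.07 in deficient mice, against 0.22, -0.03 and 0.10 in wild-type mice. All 8 members were above their own mean in deficient mouse 1 and none in deficient mouse 2, with 1 in deficient mouse 3 and 7, 3 and 8 in the wild-type mice.

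**Figure D2:**
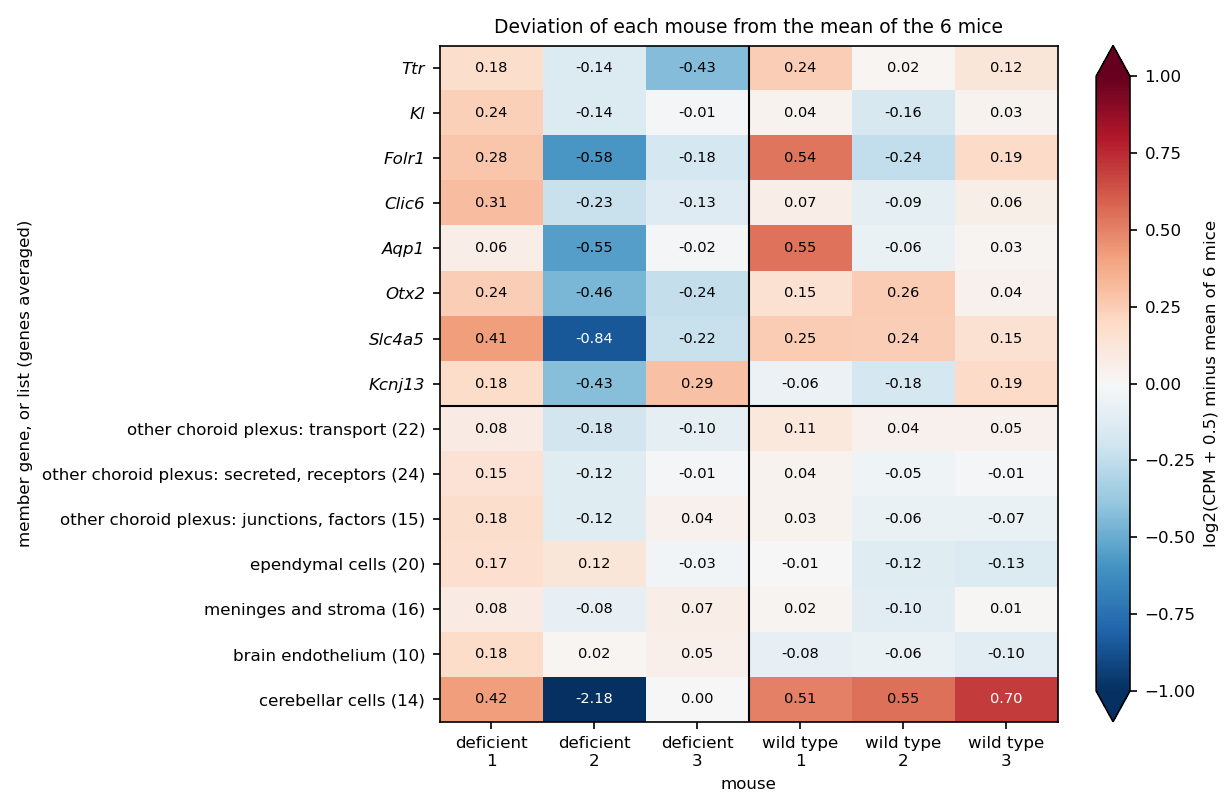
Deviation of each mouse (columns) from the mean of the 6 mice on the log2(CPM + 0.5) scale, for the 8 members and, below the line, for lists of other genes averaged within a mouse (number of genes in parentheses). Red is above and blue below the mean, with the colour scale ending at -1 and 1; the column of deficient mouse 2 is blue for every member and reaches -2.18 for the cerebellar list.

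Deficient mouse 2 lay below every wild-type mouse for 7 of the 8 members, all but Kl, and had the lowest value of the 6 mice for 6 members. Over all tested genes, 26.9% had their lowest value in this mouse. Deficient mouse 3 lay below every wild-type mouse for 4 members, Ttr, Clic6, Otx2 and Slc4a5. For 5 members deficient mouse 1 fell inside the span of the wild-type mice, and above it for Kl, Clic6 and Slc4a5. It exceeded the other deficient mice for 7 members, against 35.9% of all tested genes. For placings of 1 deficient mouse against all wild-type mice, shares over all tested genes were not counted. Whether these placings are unusual was not tested. In 16.0% of all tested genes every deficient mouse lay below every wild-type mouse, against 0 members.

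Across the 6 mice the log2 levels of 27 of 28 pairs of members had a positive Pearson r, with a median of 0.675. The same number, 27, was positive with a median of 0.68 after the mean of each genotype was taken out. The closest pairs were Otx2 with Slc4a5 (r = 0.97), Kl with Clic6 (r = 0.92) and Folr1 with Aqp1 (r = 0.92), and the exception was Ttr with Kcnj13 (r = -0.08). All pairs share the same 6 libraries, so these values are a description. The within-genotype variance was 377 times counting noise for Ttr, whose counts are the highest, 6.42 to 15.7 times for 6 other members and 1.83 times for Kcnj13. Over all tested genes the median was 2.18 times and the 90th percentile 13.3 times, and the ratio grows with a gene's count.

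The members did not move in one fixed proportion. The ratio of Slc4a5 to Clic6 counts was 0.342, 0.194 and 0.292 in deficient mice, against 0.360, 0.401 and 0.338 in wild-type mice. The ratio of Slc4a5 to Otx2 counts was 1.04, 0.679 and 0.929 in deficient mice, against 0.986, 0.911 and 0.995 in wild-type mice, which means that deficient mouse 2 had less Slc4a5 for its Otx2 than any other mouse. The ratio of Ttr to Clic6 counts was 29.1, 34.1 and 25.9 in deficient mice, against 36.1, 34.5 and 33.4 in wild-type mice, lowest in deficient mouse 3.

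Which deficient mice entered the comparison changed its outcome. Without deficient mouse 1, which had the high values, 3 members passed the edgeR test at an adjusted p under 0.05 and were lower in deficient mice. They were Ttr at a log2 fold change of -0.41 (adjusted p = 0.0245), Otx2 at -0.53 (adjusted p = 0.0312) and Slc4a5 at -0.78 (adjusted p = 0.0292). That fit called 13.6% of all tested genes in either direction and 6.48% of all tested genes as lower in deficient mice, against 4.93% and 2.48% with all mice. Without deficient mouse 2 none of the 8 passed (4.47% of all tested genes did), and the log2 fold changes were -0.23 for Ttr, -0.14 for Otx2 and -0.09 for Slc4a5. Without deficient mouse 3 none passed either (1.01% of all tested genes did), with -0.10 for Ttr, -0.24 for Otx2 and -0.33 for Slc4a5. Leaving out a wild-type mouse gave no calls among the members and few in all, 0.289, 0.346 and 0.648% of tested genes without wild-type mice 1, 2 and 3.

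**Figure D3:**
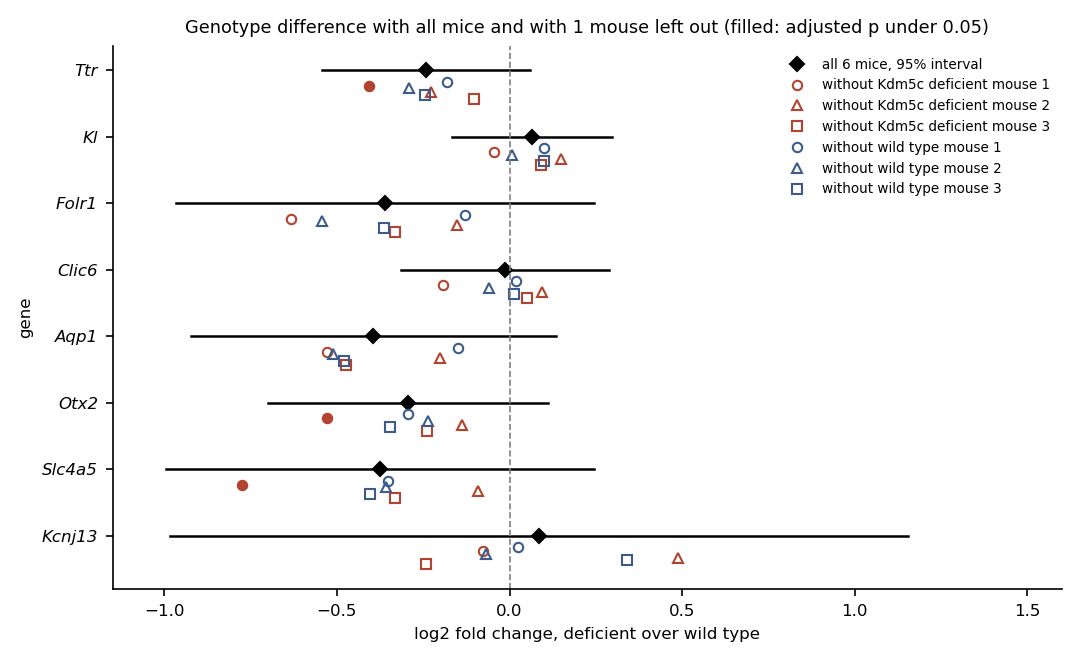
Log2 fold change of deficient over wild-type mice (horizontal axis) for each member with all 6 mice (diamonds, lines are 95% intervals) and with 1 mouse left out (open symbols, filled where the adjusted p is under 0.05). All 8 intervals cross 0, and the filled symbols are Ttr, Otx2 and Slc4a5 without deficient mouse 1.

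In the authors' deposited table, whose log2 fold changes run the other way, wild type over deficient, and are drawn towards 0, the members ranged from -0.06 for Kl to 0.21 for Aqp1, with unadjusted p-values from 0.133 to 0.947. The positive values there, Ttr, Folr1, Clic6, Aqp1, Otx2 and Slc4a5, belong to the 6 genes that were lower in deficient mice in the counts.

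Other genes of the choroid plexus were taken from 3 lists of 65 symbols, of which 61 were tested. An unadjusted p under 0.05 was found for 17 of the 61, beside 3760 of all 15127 tested genes. Of the 61, 4 were higher and 1 was lower in deficient mice past an adjusted p of 0.05 (8.2%, beside 4.93% of all tested genes). The median log2 fold change of the 61 was -0.03, against 0.00 over all tested genes and -0.27 for the 8 members. Without deficient mouse 1 the medians were -0.10 for these lists and -0.47 for the members, and without deficient mouse 2 they were 0.02 and -0.12. Without wild-type mouse 1 the members' median was -0.14. Many genes of these lists are also used by other brain cells. For transporters, channels and pumps, 0 of 22 passed, 14 were negative and the median was -0.16. Slc12a2, the sodium-potassium-chloride cotransporter of fluid secretion, averaged 145 ± 20.7 CPM in deficient and 173 ± 5.44 CPM in wild-type mice (SD, n = 3 each), with a log2 fold change of -0.25 and an adjusted p of 0.138 in the edgeR test. Trpm3, a cation channel that hosts a microRNA of this epithelium, had a log2 fold change of -0.36 and Slc29a4, a monoamine transporter, of -0.34, each with an adjusted p of 0.165 in that test. The abundant pump subunit Atp1b1 (0.03) and the bicarbonate transporter Slc4a10 (0.06) were close to 0.

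For secreted proteins, receptors and enzymes, 2 of 24 genes rose and 1 fell in deficient mice, with a median of -0.01. Over all tested genes 2.45% were called higher and 2.48% lower. Col9a3, a collagen IX chain, averaged 43.3 ± 9.49 CPM in deficient and 26.3 ± 1.06 CPM in wild-type mice, and Wfikkn2, a secreted protease inhibitor domain protein that binds GDF8 and GDF11, 6.09 ± 1.15 CPM in deficient and 3.84 ± 0.221 CPM in wild-type mice (SD, n = 3 each). Their adjusted p-values in the edgeR test were 0.0301 and 0.0458. Elovl7, a fatty acid elongase, fell to 29.5 ± 2.81 CPM in deficient mice, against 39.6 ± 2.42 CPM in wild-type mice, with an adjusted p of 0.0258 in the same test. Enpp2, which encodes the secreted enzyme autotaxin, had a log2 fold change of -0.37 with an adjusted p of 0.0965 there.

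Among genes for junctions, cytoskeleton and transcription factors, 2 of 15 rose (beside 2.45% of all tested genes), with a median of 0.01. Cldn3, a tight junction claudin, averaged 1.71 ± 0.233 CPM in deficient and 0.550 ± 0.236 CPM in wild-type mice, and Spint2, a membrane serine protease inhibitor, 31.5 ± 0.667 CPM in deficient and 25.9 ± 1.75 CPM in wild-type mice (SD, n = 3 each). Their adjusted p-values were 0.0253 and 0.0464 in the edgeR test. Exons of Tcfl5 overlap those of Col9a3, and exons of Wbscr25 those of Cldn3, on the opposite strand. None of these 5 genes passed in the fits without deficient mouse 3 or without any 1 wild-type mouse, where adjusted p-values ran from 0.0617 to 0.182, and Spint2 did not pass without deficient mouse 2 (adjusted p = 0.0712). Without deficient mouse 1, 15 of the 62 listed genes tested passed, 5 higher and 10 lower in deficient mice. That fit called 7.16% of all tested genes as higher and 6.48% as lower.

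**Figure D4:**
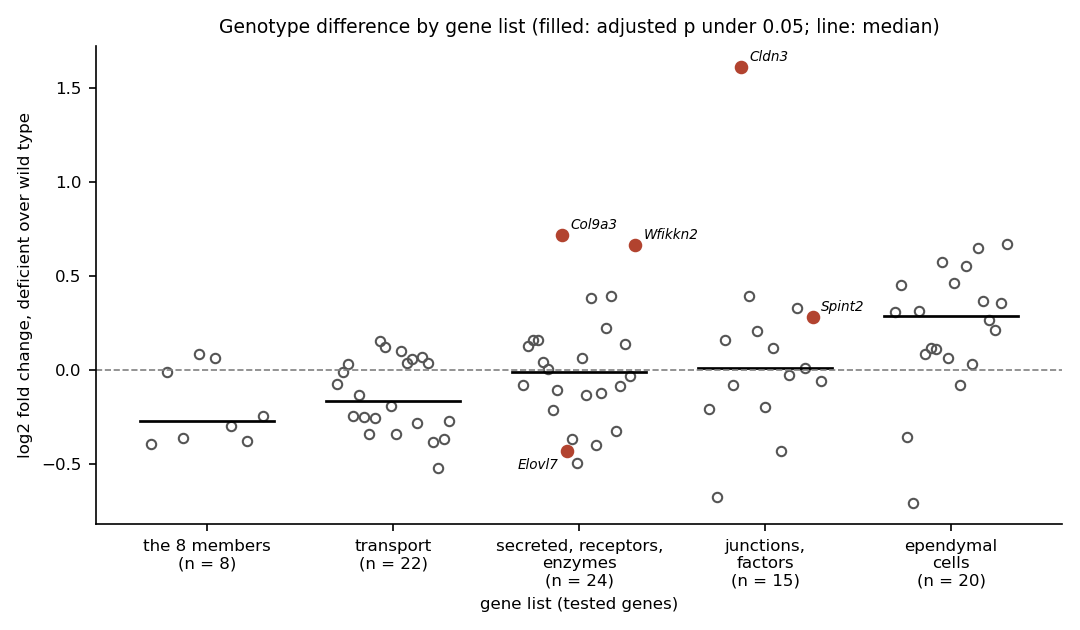
Log2 fold change of deficient over wild-type mice (vertical axis) for the tested genes of each list, with the 8 members at the left. Points are genes, black lines are list medians, and filled points have an adjusted p under 0.05; they are Col9a3, Wfikkn2, Cldn3 and Spint2 above 0 and Elovl7 below 0, and there is none among the members or the ependymal genes.

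The profile of the members over mice was also compared with that of every other gene that averaged at least 1 CPM. Of 13957 genes, 239 had a Pearson r above 0.9 with the members' mean centred profile over the 6 mice. The 10 closest, with r from 0.981 to 0.993, were Chst9, Dmp1, Slc27a1, Clic1, Gga1, Senp1, Trpc4ap, Farsa, Zfp865 and Rhod. Their ratios of highest to lowest mouse ran from 1.12 for Trpc4ap to 2.17 for Rhod. Of 58 other choroid plexus genes compared, 4 had an r above 0.9, and their median r was 0.445, against 0.024 over all compared genes. These 4, named after their values were seen, were Kcne2 (r = 0.954), Cldn2 (r = 0.939), F5 (r = 0.926) and Tmem72 (r = 0.904). Kcne2, a potassium channel subunit, gave 6.49, 3.65 and 4.33 CPM in deficient mice and 6.60, 5.38 and 5.12 CPM in wild-type mice. Tmem72, a membrane protein, gave 4.75, 2.22 and 3.04 CPM in deficient mice and 4.62, 4.75 and 4.90 CPM in wild-type mice. Both were lowest in deficient mouse 2, but they were picked for likeness to a profile that is lowest there. Their low value in that mouse is therefore no separate evidence.

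Ependymal cells line the ventricle walls. Of 20 tested ependymal and motile cilia genes 0 passed, 17 were positive and the median log2 fold change was 0.29. Over all tested genes 49.7% were negative. In the edgeR test 6 of the 20 had an unadjusted p under 0.05, beside 3760 of all 15127 tested genes. The averages that follow are of the 20 genes. Their averaged deviations were 0.17, 0.12 and -0.03 in deficient mice, against -0.01, -0.12 and -0.13 in wild-type mice. Deficient mouse 2, the lowest in the members, had a positive value in this list; whether the samples held ependyma and choroid plexus in a fixed proportion was not tested. The cerebellar list did move with the members in deficient mouse 2: its deviations were 0.42, -2.18 and 0.004 in deficient mice, against 0.51, 0.55 and 0.70 in wild-type mice. All 14 of its genes were negative and 0 passed. Without deficient mouse 2 the median log2 fold change of the list was -0.41, against -0.90 with all mice. In that fit 3 of the 14 were lower past the threshold, beside 2.12% of all tested genes. The part of the cerebellar list in the members' levels was not tested.

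Genes of neighbouring tissues were read for the other cells a ventricular sample could hold. Over all tested genes 4.93% passed, and in lists as small as these a single call is already a larger share, such as 6.25% for meninges and stroma. Of 16 genes of meninges and stroma, 1, Lum, passed and was lower (log2 fold change -1.13), with deviations of 0.08, -0.08 and 0.07 in deficient mice, against 0.02, -0.10 and 0.01 in wild-type mice. Of 10 genes of brain endothelium, 1, Mfsd2a, passed and was higher (0.49), and of 6 genes of fenestrated endothelium and blood, 1, Hbb-bt, passed and was lower (-0.62), where near-identical globin genes could share reads. Of 7 tanycyte genes 0 passed, but 5 had an unadjusted p under 0.05 in the edgeR test, with a median log2 fold change of 0.27. Of 3 subcommissural organ genes 1, Car3, was higher (1.17). Of 10 genes of cortical and hippocampal excitatory neurons 0 passed, but 8 had an unadjusted p under 0.05 in that test. Of these 10, 8 were positive and 2 negative, with a median of 0.22. Over all tested genes 3760 of 15127 had an unadjusted p under 0.05. Of 13 genes of hypothalamus and thalamus, 3 passed and were higher (Pomc, Trh and Avp).

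Ttr is also made by liver, and Ttr, Otx2 and Kcnj13 by retinal pigment epithelium or pineal gland. Of 8 liver genes only Ttpa was high enough to be tested, and it did not pass. The summed liver level was 4.89 to 5.52 CPM in deficient mice and 4.68 to 7.21 CPM in wild-type mice, Ahsg was at 0 in every mouse and Alb reached at most 0.188 CPM, beside at least 536 CPM for Ttr. For retinal pigment epithelium and pineal gland, 5 of 11 genes were tested and 2 were higher, Best1 (1.64) and Rlbp1 (0.91). The summed level of that list was 22.7 to 30.1 CPM in deficient mice and 14.0 to 16.5 CPM in wild-type mice. Most of this sum was the single gene Rlbp1, at 17.3 to 23.0 CPM in deficient and 9.88 to 12.5 CPM in wild-type mice. Rpe65 did not pass (log2 fold change 0.22, adjusted p = 0.794 in the edgeR test), so the sum is not a measure of the amount of these tissues. The pigment gene Tyr was at 0 in every deficient mouse and at most 0.131 CPM in wild-type mice, and the pineal genes Asmt and Crx reached at most 0.0489 and 0.243 CPM. None of the 9 genes named from these neighbouring lists as past the threshold (Lum, Mfsd2a, Hbb-bt, Car3, Pomc, Trh, Avp, Best1 and Rlbp1) passed the edgeR test without wild-type mouse 1, where their adjusted p-values ran from 0.0592 to 0.163. In each of the fits without deficient mouse 3, wild-type mouse 2 or wild-type mouse 3, 7 of the 9 did not pass, and Car3 and Avp did not pass without deficient mouse 2.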

How the data were processed

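RNA was measured by sequencing of column-purified RNA with Illumina TruSeq libraries, per the labels' protocols; DESeq2 and the build GRCm38 are named in the submitters' processing notes. For the aligner, counter, annotation and strandedness, the sources used here give nothing. The deposited table holds raw counts for every gene and animal, not normalized by the authors: the values are whole and their totals differ. It also holds a mean signal over mice, the authors' deposited log2 fold change, its error, a Wald test score and a p-value without adjustment, used here only for comparison.

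The counts were tested with edgeR 4.0.16 in R 4.3.3 (quasi-likelihood test, genotype as the only factor, trimmed mean of M-values scaling, minimum count 10 and minimum total 15, Benjamini-Hochberg adjustment over 15127 genes, threshold 0.05). CPM relate counts to the scaled library total, with a pseudocount of 0.5 for log2 values. Positions and exon lengths came from GENCODE M21. The fit was tested on simulated data. No libraries of a genotype agreed within sampling noise (chi-square per gene 3.42 to 16.7). Each mouse is 1 replicate. Depths of 20221675 to 24555412 counts limit precision mainly for genes with few counts, such as Kcnj13. Alternatives were other scalings, no filter, a mean of at least 5 CPM, DESeq2 1.42.0, limma-voom 3.58.1, a replicate block and leaving out each mouse.

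The members and lists were chosen with earlier results of these data known. Besides the members and Kdm5c, genes were named by a rule: in each choroid plexus list those past the threshold, otherwise the 4 smallest p-values, and the 2 most abundant; in other lists up to 4 smallest p-values; and the 10 genes most like the members. Not all of these are printed, and some are not reported here. Snap25, Mbp, Aldh1l1, Alb, Tyr, Asmt and Crx were named for their roles after their values were seen.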

Additional observations from a re-analysis of the deposited data

How the results depend on the processing

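No member passed the threshold under other scalings, filters, DESeq2, limma-voom or the replicate block, and leaving out a mouse gave 0 to 3 calls. The members' median log2 fold change, -0.27, ran from -0.30 to -0.27 under settings with all mice and from -0.47 (without deficient mouse 1) to -0.12 (without deficient mouse 2) when a mouse was left out. Over all tested genes, 746 passed, against 1121 with no filter, 1213 with DESeq2, 58 with the replicate block and 44 to 2098 when a mouse was left out. The fit with no filter tests more genes and those without a mouse use 5; DESeq2 and the block tested the same genes in all 6 mice. The adjusted p of Wfikkn2 was 0.0502 without scaling and 0.0544 with limma-voom, and that of Spint2 was 0.055 without scaling. Of the other choroid plexus genes 5 passed, against 3 without scaling, 3 at a mean of at least 5 CPM, 0 with the replicate block and 0 to 15 when a mouse was left out. More passed with DESeq2 and with no filter, 5 higher and 2 lower in each, of 61 and 64 tested. Signs turned for small changes: Kcnj13 was -0.055 with limma-voom, and when a mouse was left out it ran from -0.243 to 0.487, Kl from -0.046 to 0.148, Clic6 from -0.194 to 0.093 and the choroid plexus gene Vat1l from -0.108 to 0.041. The cause was not tested. Over all tested genes, mice with the same number did not pair. Correlations of their deviations were -0.06, -0.09 and 0.15, and only the mice numbered 3 correlated best with each other. The members' averaged deviations, however, fell in the order of mice 1, 3 and 2 in both genotypes. With the replicate block, unadjusted p-values in the edgeR test were 0.0346 for Ttr, 0.0231 for Folr1 and 0.0488 for Aqp1. Their adjusted p-values were 0.191, 0.164 and 0.221, and the other members had unadjusted p-values from 0.121 to 0.826. Aqp1 and Kcnj13 were not tested at a mean of at least 5 CPM, and DESeq2 gave no adjusted p for Kcnj13. At 4 to 13 counts, depth limits what Kcnj13 can show.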
